A study of Mus musculus with 8 samples.

Results

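The collagen chain genes are the genes that encode the alpha chains of collagen. They were taken as every gene whose symbol reads Col, a number, the letter a and a number (Col1a1, Col27a1). This gave 39 of the 16796 genes listed in 8 mouse liver RNA-seq libraries, by symbol alone, although collagen genes were picked as the topic with earlier results of these data known. The livers came from 4 wild-type (WT) mice, numbers 164, 165, 166 and 167, and from 4 E4bp4-LKO mice, numbers 143, 144, 145 and 179. E4bp4-LKO mice are labelled as a liver-specific knockout of E4bp4 (gene symbol Nfil3), and the labels do not name the Cre driver. All 8 mice started a diet that induces non-alcoholic steatohepatitis (NASH diet) at 2 months of age and ate it for 20 weeks. No chow-fed group is among these samples, so every difference is between genotypes on that diet. RNA came from whole liver tissue, and the labels give neither strain nor sex. The Y-linked genes Ddx3y (1463 to 1992 counts), Eif2s3y (1143 to 1419), Uty (383 to 558) and Kdm5d (303 to 480) were read in all 8 livers, as in male mice.

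Collagens are secreted proteins in which 3 alpha chains wind into a triple helix. Fibrillar collagens form the fibres of scar tissue, type IV forms the sheet of basement membranes, type VI forms beaded microfibrils, and FACIT collagens sit on the surface of fibrils. Multiplexins lie at basement membranes and release anti-angiogenic fragments such as endostatin. In injured liver, fibrillar collagen is made mainly by activated stellate cells and portal fibroblasts, and type XVIII is also made by hepatocytes.

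Each library held between 23805540 and 32290265 counts, so 3 counts corresponded to 0.0929 to 0.126 CPM (counts scaled to a common library total). Levels in CPM are further scaled by TMM, a factor set by the bulk of the genes. The TMM factors were 1.16 for WT 164 and 1.09 for WT 165 and lay between 0.941 and 1.00 in the other 6 livers, so results are also given without those 2 livers. Nfil3, the targeted gene, was at 11.4, 8.79, 12.1 and 16.5 CPM in the WT livers and at 3.33, 6.22, 6.14 and 3.35 CPM in the E4bp4-LKO livers, with no overlap. Its log2 fold change was -1.35 ± 0.25 (SE, adjusted p = 0.0121). Some Nfil3 counts thus remained in every E4bp4-LKO liver (75 to 189), and the files do not show which part of the gene they cover. Hepatocyte markers (Alb, Ttr, Apoa1, Tat and Cps1) summed to 53240 to 68935 CPM in WT and 66510 to 82555 CPM in E4bp4-LKO livers. Alb made up most of these sums (50800 CPM in WT and 58327 CPM in E4bp4-LKO livers on average). Tat was below WT in every E4bp4-LKO liver (log2 fold change -0.35, edgeR adjusted p = 0.0917). Cps1 was above WT in every E4bp4-LKO liver (0.45, 0.0510).

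Of the 28 collagen genes measured well enough to test, 8 were lower and 2 were higher in the E4bp4-LKO livers than in the WT livers. The 8 were Col1a2, Col3a1, Col5a1 and Col5a2 (fibrillar), Col4a1 (basement membrane), Col6a1 and Col6a2 (type VI) and Col15a1 (multiplexin), with log2 fold changes from -1.48 to -0.65. Col5a3 and Col27a1, which are also fibrillar, rose, although Col5a3 did not pass with plain library totals or on FPKM. The abundant Col14a1 and Col18a1 did not pass. Because these are whole livers, fewer cells of a type and less RNA per cell cannot be told apart.

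The test was edgeR's quasi-likelihood test on all 13244 genes that passed a filter on low counts, with Benjamini-Hochberg adjusted p-values and a threshold of 0.05. Of the 39 collagen genes, 28 passed that filter, and the 11 others held at most 29 counts in any liver. Among the 28, 8 (28.6%) were lower, where 6.48% of all genes tested were lower. The 2 higher collagen genes made up 7.14% of the 28, where 4.36% of all genes tested were higher. The log2 fold change was below 0 for 22 of the 28 and above 0 for 6, with a median of -0.56 beside 0.01 over all genes tested. In 8 collagen genes every E4bp4-LKO liver was below every WT liver (28.6%, against 9.69% of all genes tested), and in 2 every E4bp4-LKO liver was above (7.14%, against 8.81%). The 4 livers of a group are separate animals by their mouse numbers.

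**Figure D1:**
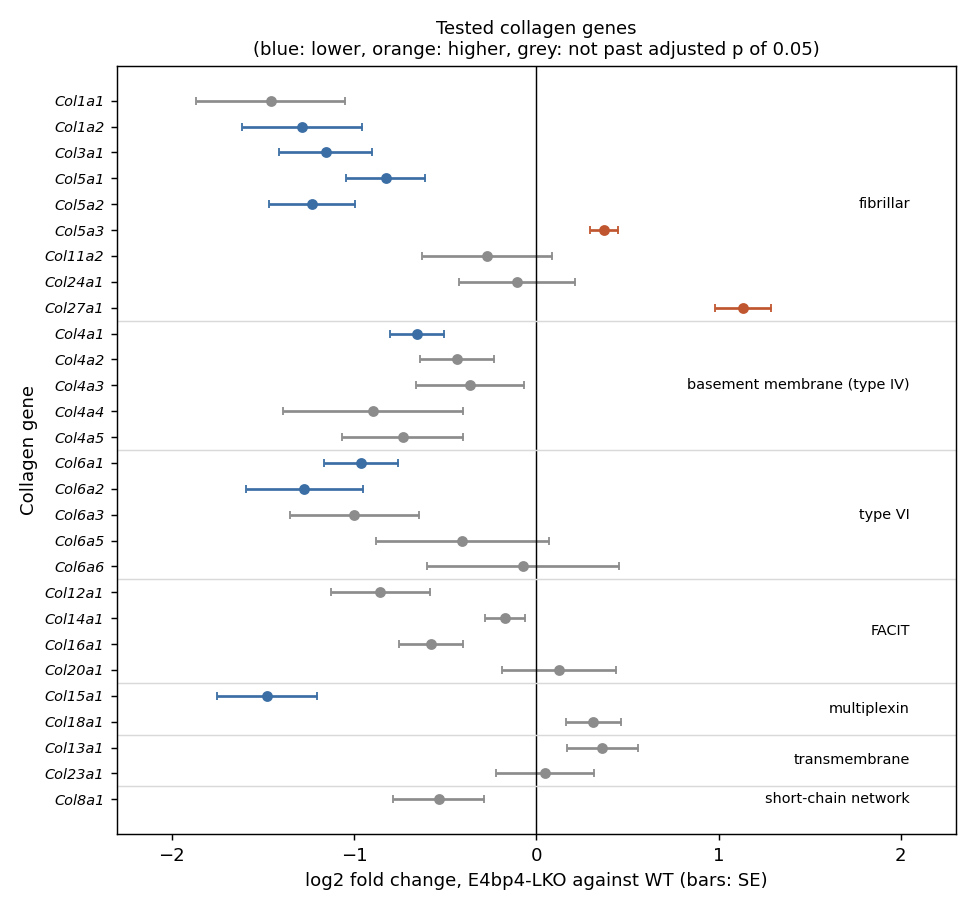
The log2 fold change of each of the 28 tested collagen genes (x axis, E4bp4-LKO against WT; bars are the SE) is drawn by gene (y axis), blue for the 8 that passed as lower, orange for the 2 that passed as higher and grey for the 18 that did not pass. Col15a1 lies at -1.48 at one end and Col27a1 at 1.13 at the other.

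The sequences before the start sites of 5 collagen genes are shown because these genes moved in opposite directions: Col3a1, Col15a1 and Col5a1 were lower, and Col27a1 and Col5a3 were higher. They are 250-base windows from RefSeq on GRCm38.p6, each ending just before the start, read 5′ to 3′ on the gene's strand. Capitals mark the motif letters searched for on both strands: TTATGTAA or TTACGTAA (a D-box, the kind of site that E4BP4 and its relatives bind), the CCAAT box (by those letters), the TATA box (searched as TATAAA) and the GC box (searched as GGGCGG and read on the other strand as its reverse complement).
Col3a1, chr1:45311288-45311537, plus strand: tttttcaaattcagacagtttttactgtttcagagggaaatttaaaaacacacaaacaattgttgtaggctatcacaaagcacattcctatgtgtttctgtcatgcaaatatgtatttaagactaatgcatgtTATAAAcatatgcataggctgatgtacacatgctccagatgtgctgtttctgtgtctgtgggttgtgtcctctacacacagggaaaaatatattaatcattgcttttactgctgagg
Col15a1, chr4:47207762-47208011, plus strand: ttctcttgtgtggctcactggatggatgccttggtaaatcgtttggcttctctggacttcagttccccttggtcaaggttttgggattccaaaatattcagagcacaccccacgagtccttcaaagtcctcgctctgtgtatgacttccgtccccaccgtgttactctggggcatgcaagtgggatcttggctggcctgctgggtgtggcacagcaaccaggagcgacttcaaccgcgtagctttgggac
Col5a1, chr2:27886175-27886424, plus strand: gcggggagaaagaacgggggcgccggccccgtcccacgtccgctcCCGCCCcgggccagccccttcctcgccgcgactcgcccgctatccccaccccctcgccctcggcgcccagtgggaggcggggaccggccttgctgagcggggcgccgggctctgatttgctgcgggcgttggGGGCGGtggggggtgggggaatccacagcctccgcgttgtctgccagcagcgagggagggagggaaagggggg
Col27a1, chr4:63215162-63215411, plus strand: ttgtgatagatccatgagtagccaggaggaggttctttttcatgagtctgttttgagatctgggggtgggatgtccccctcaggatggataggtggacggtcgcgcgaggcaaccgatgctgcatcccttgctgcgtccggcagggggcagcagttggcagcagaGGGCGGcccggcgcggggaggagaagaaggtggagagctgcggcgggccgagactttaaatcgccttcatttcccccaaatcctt
Col5a3, chr9:20815068-20815317, minus strand: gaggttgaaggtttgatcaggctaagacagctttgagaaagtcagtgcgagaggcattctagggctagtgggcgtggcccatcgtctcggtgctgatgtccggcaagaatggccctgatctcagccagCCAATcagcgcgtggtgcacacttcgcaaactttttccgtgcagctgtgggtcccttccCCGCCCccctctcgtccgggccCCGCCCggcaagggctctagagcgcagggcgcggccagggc

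Counting the base at the start as 0, Col3a1 holds TATAAA from -117 to -112. Col27a1 holds GGGCGG from -85 to -80, and Col5a1 holds the GC box letters from -205 to -200 (as CCGCCC) and from -73 to -68. Col5a3 holds CCAAT from -122 to -118 and the GC box letters, as CCGCCC, from -63 to -58 and from -41 to -36. The printed Col15a1 stretch holds none of these letters. Of the 39 collagen genes, 32 matched at least 1 RefSeq window of 300 bases (250 before the start and 50 after), giving 35 windows among 32851 in all. The D-box letters were in 0 of the 35 windows and in 347 of all windows (1.06%), which says only that these letters are not in this stretch. GGGCGG was in 21 of the 35 (60.0%, against 35.7% of all windows), CCAAT in 11 (31.4%, against 37.4%) and TATAAA in 5 (14.3%, against 13.6%).

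Among the fibrillar genes, the type I and type III chains were the most abundant, and Col1a2 and Col3a1 fell 2.44-fold and 2.22-fold. Col1a2, the alpha2 chain of type I collagen, was at 248, 129, 91.9 and 110.1 CPM in WT 164, 165, 166 and 167 and at 46.5, 46.9, 79.5 and 64.7 CPM in E4bp4-LKO 143, 144, 145 and 179. WT 164 stood well above the other WT livers, and the groups did not overlap. Means were 145 ± 70.7 and 59.4 ± 15.9 CPM (SD, n = 4 each), a log2 fold change of -1.29 ± 0.33 (SE, adjusted p = 0.0442 by edgeR's quasi-likelihood test).

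Col3a1, which forms the homotrimer of type III collagen, was at 394, 229, 177 and 197 CPM in the WT livers and at 103, 90.3, 146 and 109 CPM in the E4bp4-LKO livers. WT 164 was again the highest, E4bp4-LKO 145 was the highest of its group, and the groups did not overlap. Means were 249 ± 98.7 and 112 ± 24.0 CPM, a log2 fold change of -1.15 ± 0.26 (adjusted p = 0.0246). Col1a1, the alpha1 chain of type I collagen and the classic readout of liver fibrosis, was at 363, 166, 114 and 145 CPM in WT livers and at 48.9, 55.8, 106 and 77.0 CPM in E4bp4-LKO livers. The groups did not overlap, although WT 166 and E4bp4-LKO 145 were close. Its log2 fold change of -1.46 ± 0.41 was larger than that of Col1a2 but missed the threshold (adjusted p = 0.0597). DESeq2 put Col1a1 past it, at an adjusted p of 0.0110.

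Whether these 3 genes passed the threshold changed with the livers left out, while their direction did not. Without WT 164 the log2 fold changes were -0.98 for Col1a1 (adjusted p = 0.0860), -0.89 for Col1a2 (0.0406) and -0.84 for Col3a1 (0.0141). Without both WT 164 and WT 165 they were -0.85 (adjusted p = 0.250), -0.76 (0.146) and -0.73 (0.0631), so all 3 directions held and none passed. Col1a2 also missed the threshold when any one of WT 165, WT 167 or the 4 E4bp4-LKO livers was left out (adjusted p from 0.0527 to 0.113). Col3a1 missed it without WT 165 and without E4bp4-LKO 143, 144 or 179 (0.0515 to 0.0746), and Col1a1 passed without WT 166 (0.0471).

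Type V collagen, which helps nucleate type I fibrils, split between its chains: Col5a1 and Col5a2 fell and Col5a3 rose. Col5a1 was at 48.5, 30.0, 24.5 and 29.7 CPM in the WT livers and at 20.1, 17.0, 23.0 and 14.6 CPM in the E4bp4-LKO livers. WT 166 and E4bp4-LKO 145 nearly touched, without overlap. Its log2 fold change was -0.83 ± 0.22 (adjusted p = 0.0413). Col5a2 was at 29.6, 16.5, 13.1 and 17.1 CPM in WT livers and at 7.37, 7.11, 9.67 and 8.43 CPM in E4bp4-LKO livers. All E4bp4-LKO livers lay below 10 CPM and all WT livers above it. Its log2 fold change was -1.23 ± 0.24 (adjusted p = 0.0137). Without WT 164 and 165 the values were -0.53 for Col5a1 (adjusted p = 0.133) and -0.89 for Col5a2 (0.0153). Col5a2 missed the threshold only without E4bp4-LKO 144 (0.0514) among the single livers left out, whereas Col5a1 passed only without WT 164 (0.0355) or WT 166 (0.0286).

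Col5a3, the alpha3 chain of type V, was at 26.9, 29.3, 25.4 and 30.3 CPM in WT livers and at 39.1, 35.5, 34.99 and 34.9 CPM in E4bp4-LKO livers. Every E4bp4-LKO liver was above every WT liver, and the spread within groups was small. Means were 28.0 ± 2.22 and 36.1 ± 1.98 CPM, 1.29-fold higher (log2 fold change 0.37 ± 0.08, adjusted p = 0.0150). The call held with each single liver left out (0.0133 to 0.0426). With DESeq2 size factors in edgeR it also held (0.37, adjusted p = 0.0148). With plain library totals the log2 fold change was 0.21 (adjusted p = 0.129), and on log2(FPKM + 1) it was 0.18 (0.159). Dropping WT 164 and 165 gave 0.38, which missed the threshold (0.0676).

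Col27a1 encodes type XXVII collagen, a fibrillar chain best known from cartilage, and had the largest rise of the 28 tested collagen genes. It was at 24.0, 28.0, 30.3 and 23.6 CPM in the WT livers and at 51.1, 69.2, 43.2 and 68.9 CPM in the E4bp4-LKO livers. Every E4bp4-LKO liver was above every WT liver, with E4bp4-LKO 145 the lowest of its group. Means were 26.5 ± 3.22 and 58.1 ± 13.1 CPM, 2.19-fold higher (log2 fold change 1.13 ± 0.15, adjusted p = 0.00333), and the call held with each single liver left out. Without WT 164 and 165 the change was as large (1.11) at an adjusted p of 0.0570. The genes on either side on the chromosome did not pass: Kif12 at -0.83 (adjusted p = 0.248) and Orm1 at -0.25 (0.110).

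The 2 remaining fibrillar genes, Col11a2 and Col24a1, had means under 1 CPM in both groups, with log2 fold changes of -0.27 (adjusted p = 0.672) and -0.11 (0.864). In all, 4 of the 9 fibrillar genes fell, 2 rose and 3 did not pass, with a median log2 fold change of -0.83.

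**Figure D2:**
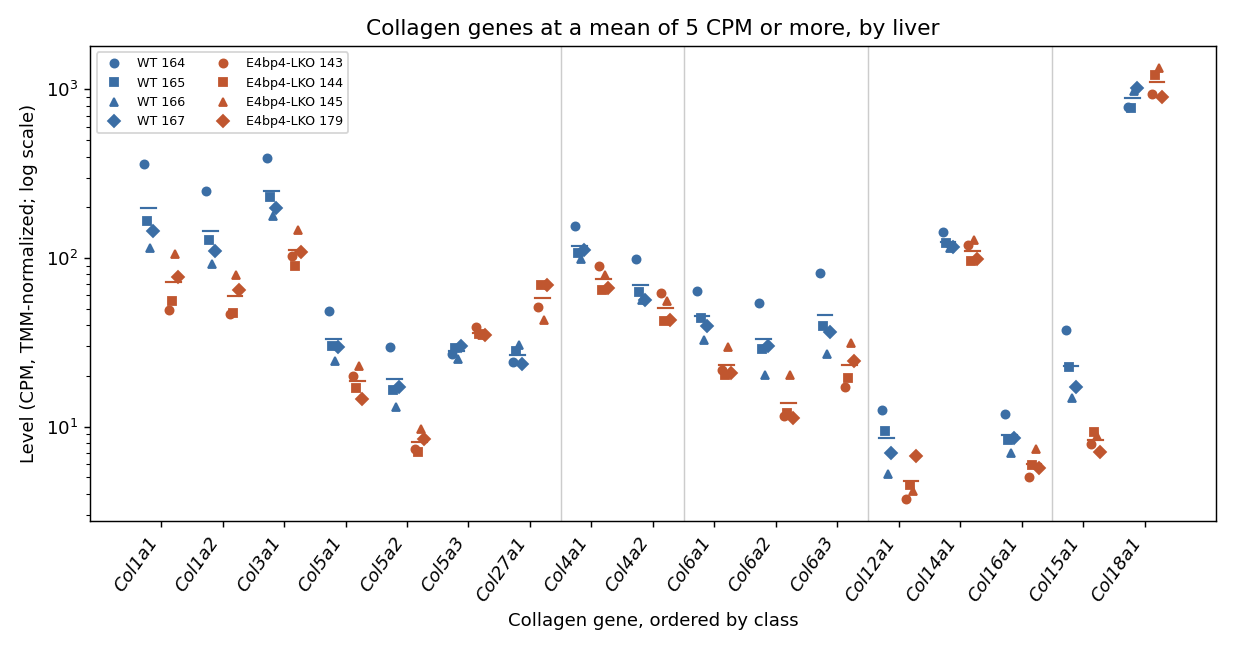
Levels in CPM on a log axis (y) are drawn for the collagen genes with a mean of at least 5 CPM, ordered by class (x), with 1 point for each liver and a dash at the group mean. The WT points sit above the E4bp4-LKO points for Col1a2, Col3a1, Col5a2 and Col15a1, and below them for Col5a3 and Col27a1.

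Levels can be compared between genes only per length, here as FPKM. By mean FPKM in WT livers, Col18a1 ranked first (163 ± 12.3), then Col3a1 (47.7 ± 22.8), Col1a1 (45.0 ± 29.4), Col1a2 (30.1 ± 17.2) and Col14a1 (20.2 ± 3.66). The ranges of Col3a1, Col1a1 and Col1a2 overlapped among the WT livers. In E4bp4-LKO livers the order was Col18a1 (183 ± 35.1), Col3a1 (18.8 ± 4.02), Col14a1 (16.0 ± 2.35), Col1a1 (14.3 ± 5.02) and Col1a2 (10.8 ± 2.85). Col27a1 moved from rank 14 to rank 8 (3.61 ± 0.434 and 7.10 ± 1.55 FPKM) and Col5a3 from 11 to 9 (4.79 ± 0.467 and 5.55 ± 0.367). Of the 39 genes, 15 were at 1 FPKM or more in all 8 livers and 21 were below 1 FPKM in all 8.

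Chains that assemble together were compared as FPKM ratios within a liver, so that the scaling of the library cancels. Type I collagen holds more alpha1 than alpha2 chains. The Col1a1 to Col1a2 ratio was 1.60, 1.41, 1.36 and 1.44 in WT livers and 1.15, 1.30, 1.45 and 1.30 in E4bp4-LKO livers. The groups overlapped, and the log2 difference was -0.16 (exact two-sided permutation test, p = 0.114, 0.143 after adjustment over 3 ratios). The Col3a1 to Col1a1 ratio was 0.916, 1.17, 1.31 and 1.15 in WT livers and 1.78, 1.37, 1.17 and 1.19 in E4bp4-LKO livers. These also overlapped, with a log2 difference of 0.27 (exact permutation p = 0.143, adjusted 0.143).

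The Col4a1 to Col4a2 ratio was 1.50, 1.63, 1.69 and 1.92 in WT livers and 1.39, 1.47, 1.37 and 1.50 in E4bp4-LKO livers. The highest E4bp4-LKO liver lay just under the lowest WT liver. The log2 difference was -0.23 (exact permutation p = 0.0286, the smallest that 4 against 4 can give, adjusted 0.0857). With 3 ratios adjusted together, 1 ratio alone at that smallest p cannot pass, so this test cannot decide. Ratios between chains that were chosen after their changes were seen carry no test. Col5a3 to Col5a1 was 0.770, 1.35, 1.44 and 1.41 in WT livers and 2.70, 2.90, 2.10 and 3.31 in E4bp4-LKO livers. Col27a1 to Col1a1 was 0.0406, 0.104, 0.163 and 0.1001 in WT livers and 0.643, 0.763, 0.252 and 0.551 in E4bp4-LKO livers. In both ratios every E4bp4-LKO liver was above every WT liver. This had to be so and adds nothing to the single genes. Col5a3 and Col27a1 were above WT in every E4bp4-LKO liver, and Col5a1 and Col1a1 were below.

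**Figure D3:**
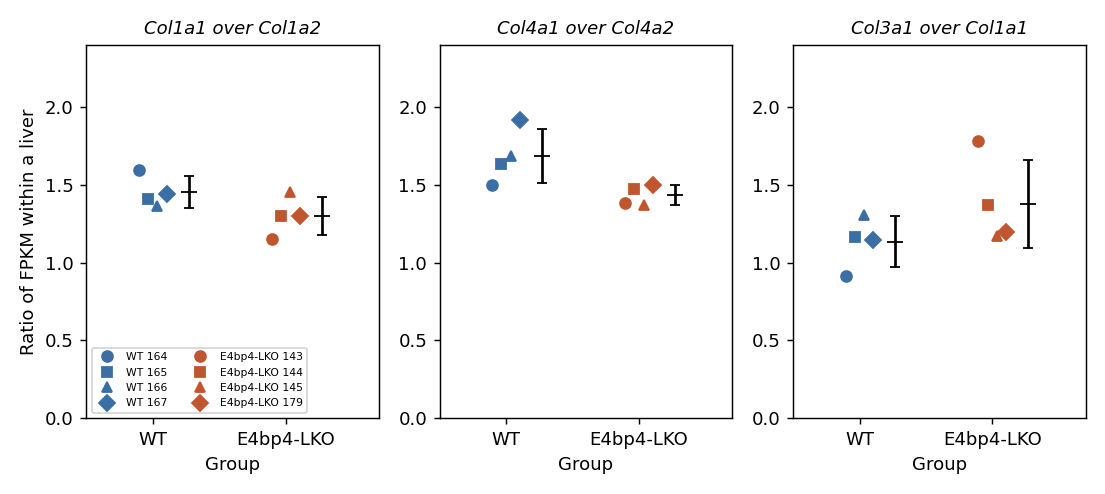
FPKM ratios of chain pairs (y axis, linear and starting at 0) are drawn for each liver by genotype (x axis), with bars at the mean ± SD of 4 livers. The groups overlap for Col1a1 over Col1a2 and for Col3a1 over Col1a1, and the E4bp4-LKO livers lie just below the WT livers for Col4a1 over Col4a2.

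In the basement membrane class, 1 of the 5 tested type IV genes fell and 4 did not pass (median log2 fold change -0.65). Col4a1 and Col4a2 encode the chains of the common type IV trimer and lie next to each other, read from a shared stretch in opposite directions. Col4a1 was at 154, 106, 98.4 and 112 CPM in the WT livers and at 89.2, 64.6, 79.0 and 66.4 CPM in the E4bp4-LKO livers. The groups did not overlap. Its means were 118 ± 24.9 and 74.8 ± 11.5 CPM, a log2 fold change of -0.65 ± 0.15 (adjusted p = 0.0241). Col4a2 was at 99.3, 63.2, 56.5 and 56.3 CPM in WT livers and at 62.3, 42.5, 55.8 and 42.9 CPM in E4bp4-LKO livers. WT 164 stood apart, and E4bp4-LKO 143 lay within the WT range. The log2 fold change of Col4a2 was -0.44 ± 0.20 (adjusted p = 0.193), and -0.20 without WT 164 (0.396).

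Without WT 164 and 165, Col4a1 stood at -0.48 (adjusted p = 0.0829), and it also missed the threshold without E4bp4-LKO 144, 145 or 179 (0.0518 to 0.0747). The chains of the specialised type IV networks were scarce. Col4a5 was at 1.72 to 5.38 CPM in WT and 1.56 to 2.65 CPM in E4bp4-LKO livers (log2 fold change -0.73, adjusted p = 0.178). Col4a3 and Col4a4 had means under 1 CPM (-0.36, adjusted p = 0.464, and -0.90, 0.264), and Col4a6 held 4 to 29 counts and was not tested.

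Of the 5 type VI genes, 2 fell and 3 did not pass, with a median log2 fold change of -0.96. The type VI microfibril is built from the products of Col6a1, Col6a2 and Col6a3. Col6a1 was at 63.6, 44.4, 32.8 and 39.4 CPM in the WT livers and at 21.6, 20.4, 29.8 and 20.9 CPM in the E4bp4-LKO livers. E4bp4-LKO 145 stood above the rest of its group but below the lowest WT liver. The log2 fold change was -0.96 ± 0.20 (adjusted p = 0.0216). Col6a2, the neighbouring gene, was at 54.2, 28.7, 20.2 and 30.1 CPM in WT livers and at 11.5, 12.0, 20.3 and 11.3 CPM in E4bp4-LKO livers. Here E4bp4-LKO 145 just passed the lowest WT liver, so the groups overlapped. The log2 fold change was -1.27 ± 0.32 (adjusted p = 0.0403).

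Col6a3, the long alpha3 chain whose C-terminal fragment is endotrophin, was at 81.4, 39.5, 27.0 and 36.6 CPM in WT livers and at 17.1, 19.5, 31.5 and 24.4 CPM in E4bp4-LKO livers. The groups overlapped through E4bp4-LKO 145, and the log2 fold change of -0.998 ± 0.35 did not pass (adjusted p = 0.111). Without WT 164 and 165 the log2 fold changes were -0.63 for Col6a1 (adjusted p = 0.0662), -0.86 for Col6a2 (0.172) and -0.46 for Col6a3 (0.385). Col6a2 passed with only WT 166 (0.0247) or only E4bp4-LKO 145 (0.0313) left out and missed the threshold without each of the other 6 livers (0.0524 to 0.110). Col6a1 missed it without WT 165, E4bp4-LKO 144 or E4bp4-LKO 179 (0.0534 to 0.0666). The alternative chains Col6a5 and Col6a6, which are neighbouring paralogues with partly shared (fractional) counts and so uncertain, had means of 0.893 to 1.19 CPM (-0.41, adjusted p = 0.628, and -0.07, 0.948).

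The FACIT genes held no call: 4 of the 8 were tested and none of the 4 passed edgeR's test. At an unadjusted p below 0.05, 2 were lower (15.2% of all genes tested were), and DESeq2 called 2 lower (9.57% of all genes). Col14a1, which coats the surface of type I fibrils, was at 143, 123, 115 and 117 CPM in the WT livers and at 119, 96.0, 128 and 98.9 CPM in the E4bp4-LKO livers. The groups overlapped throughout. Means were 125 ± 12.9 and 111 ± 15.6 CPM, a log2 fold change of -0.17 ± 0.11 (adjusted p = 0.335). Col12a1, a stress-bearing fibril partner, was at 5.26 to 12.6 CPM in WT and 3.70 to 6.69 CPM in E4bp4-LKO livers (-0.86 ± 0.27, adjusted p = 0.0708). Col16a1, a minor fibril-associated chain, was at 7.01 to 11.9 CPM and 5.00 to 7.39 CPM (-0.58 ± 0.18, adjusted p = 0.0585). Col20a1 was scarce (0.12, adjusted p = 0.838), and Col9a1, Col9a2, Col9a3 and Col22a1 held 0 to 11 counts and were not tested.

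The 2 multiplexins differed from each other. Col15a1, a basement membrane zone proteoglycan core that marks portal fibroblasts in liver, was at 37.5, 22.7, 14.8 and 17.1 CPM in the WT livers and at 7.92, 9.32, 8.79 and 7.10 CPM in the E4bp4-LKO livers. All E4bp4-LKO livers lay under 10 CPM, and the lowest WT liver was well above them. Means were 23.0 ± 10.2 and 8.28 ± 0.978 CPM, 2.78-fold lower (log2 fold change -1.48 ± 0.27, adjusted p = 0.0129). No other value was lower among the 28 tested collagen genes. It passed under all 16 other settings tried, including without WT 164 (-1.13, adjusted p = 0.00243) and without WT 164 and 165 (-0.94, 0.00658).

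Col18a1, the source of endostatin, was at 785, 776, 976 and 1013 CPM in WT livers and at 943, 1219, 1348 and 900.4 CPM in E4bp4-LKO livers. The groups overlapped, with WT 164 and 165 the lowest of the 8. Means were 887 ± 125 and 1103 ± 216 CPM, a log2 fold change of 0.31 ± 0.15 (adjusted p = 0.204). With plain library totals it was 0.16 (adjusted p = 0.391), and without WT 164 and 165 it was 0.15 (0.670).

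The other classes were scarce. Among the transmembrane collagens, Col13a1 was at 2.49, 2.44, 3.02 and 2.83 CPM in WT livers and at 4.52, 3.79, 2.65 and 2.86 CPM in E4bp4-LKO livers. E4bp4-LKO 143 and 144 were above all WT livers and the other two were within their range (log2 fold change 0.36 ± 0.19, adjusted p = 0.250). Col23a1 had a mean under 1 CPM in both groups (0.05, adjusted p = 0.936). Col8a1, a short-chain network collagen of vessel walls, was at 1.80 to 3.87 CPM in WT and 1.60 to 2.04 CPM in E4bp4-LKO livers (-0.54, adjusted p = 0.184). The anchoring fibril chain Col7a1, the growth plate chain Col10a1, and Col8a2, Col17a1, Col25a1 and Col28a1 held at most 24 counts in any liver and were not tested.

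The total of collagen RNA overlapped between the genotypes, while some of its parts did not. All 39 genes together took 0.301%, 0.202%, 0.184% and 0.197% of the counts in the WT livers and 0.155%, 0.172%, 0.205% and 0.148% in the E4bp4-LKO livers. These ranges overlapped, with means of 0.221 ± 0.0538% and 0.170 ± 0.0255%. Without Col18a1 the share was 0.210%, 0.118%, 0.0867% and 0.0975% in WT and 0.0642%, 0.0574%, 0.0777% and 0.0634% in E4bp4-LKO livers, where the groups did not overlap. Col18a1 made up 29.7%, 41.5%, 53.2% and 50.6% of the summed collagen FPKM in WT livers and 59.9%, 67.7%, 62.6% and 58.2% in E4bp4-LKO livers. Col1a1, Col1a2 and Col3a1 together made up 42.0%, 30.7%, 22.7% and 24.7% in WT livers and 13.6%, 11.7%, 16.8% and 17.7% in E4bp4-LKO livers. The groups did not overlap in either share. Only the share of all 39 genes was planned. The share without Col18a1 and the shares of single genes restate the changes given above and carry no test. By class, the shares of type IV (7.35% to 8.51% in WT, 5.25% to 8.42% in E4bp4-LKO livers) and of FACIT genes (5.51% to 6.53% and 5.21% to 7.09%) did overlap.

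**Figure D4:**
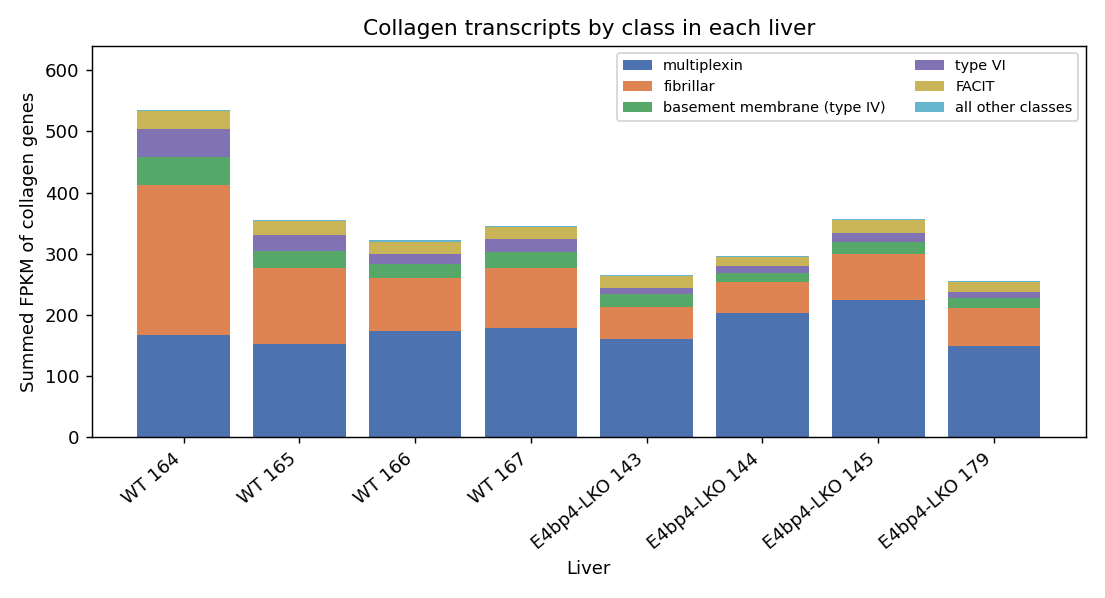
Stacked bars give the summed FPKM of the collagen genes by class (y axis) in each liver (x axis). The fibrillar part runs from 86.2 to 245 FPKM in WT livers and from 51.4 to 74.6 FPKM in E4bp4-LKO livers, while the multiplexin part, mostly Col18a1, is the largest in 7 of the 8 livers.

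WT 164 had the highest collagen levels of its group. It was the highest WT liver for 21 of the 28 tested collagen genes and for all 8 that passed as lower, and E4bp4-LKO 145 was the highest of its group for 16 of the 28 and for 6 of those 8. The median log2 fold change of the tested collagen genes was -0.33 without WT 164 and -0.34 without WT 164 and 165. Dropping a single liver left 1 lower collagen gene for E4bp4-LKO 144, 2 for E4bp4-LKO 179, 4 for WT 165 or E4bp4-LKO 143, 5 for WT 167 or E4bp4-LKO 145, 7 for WT 164 and 11 for WT 166. Lower calls over all genes moved too: they were 2.02% without E4bp4-LKO 144, 3.15% without E4bp4-LKO 179 and likewise without E4bp4-LKO 145, and 6.18% without E4bp4-LKO 143. They were 2.79% without WT 165, 3.97% without WT 164, 5.57% without WT 166 and 6.96% without WT 167. Without WT 164 and 165 together, 2 collagen genes were lower (Col5a2 and Col15a1) and 0 higher by edgeR at the adjusted threshold, where 10 and 4 had an unadjusted p below 0.05. That fit called 1.53% of all its genes lower and 1.36% higher, against 6.48% and 4.36% with all 8 livers, and 9.16% and 9.44% at the unadjusted threshold. DESeq2 on all 8 livers gave 11 lower and 2 higher collagen genes, where it called 9.57% of all genes lower and 7.33% higher.

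**Figure D5:**
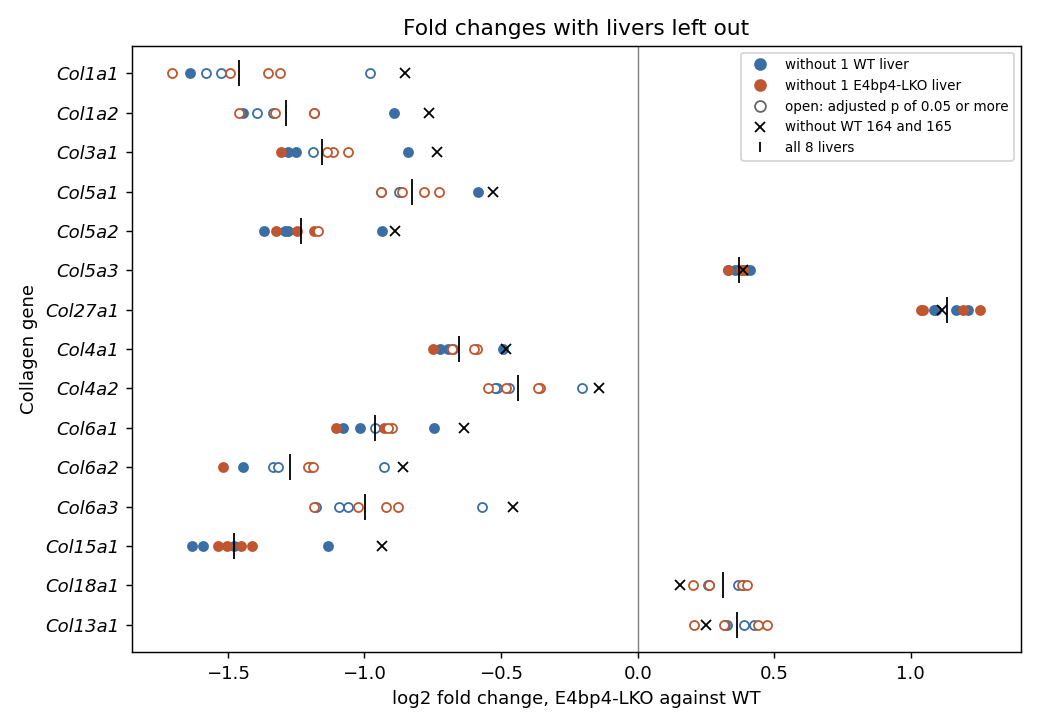
Log2 fold changes (E4bp4-LKO against WT) of the named collagen genes are drawn with all 8 livers (black tick), with 1 liver left out (circles, open where the adjusted p is 0.05 or more) and without WT 164 and 165 (cross). Col15a1 moves from -1.48 to -1.13 without WT 164, Col1a1 from -1.46 to -0.98, and Col27a1 only from 1.13 to 1.09.

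Genes whose products modify, export, cross-link, bind or break down collagen were looked at as 4 lists. The lists were chosen by function, with earlier results of these data known. Of 49 genes, 43 were tested and 9 were lower by edgeR, while 34 did not pass (median log2 fold change -0.49), beside 6.48% lower and a median of 0.01 over all genes tested. Among 17 tested genes for chain modification and folding, 5 were lower: Serpinh1, the collagen chaperone HSP47 (-0.92, adjusted p = 0.00473), Fkbp10 (-1.08, 0.0275), P4ha1, a prolyl hydroxylase subunit (-0.71, 0.0396), Crtap (-0.48, 0.0434) and Colgalt1 (-0.32, 0.0159). Among 13 for export, propeptide cleavage and cross-linking, 3 were lower: the cross-linking enzymes Lox (-1.92, 0.0411) and Loxl2 (-0.72, 0.0239) and the cleavage enhancer Pcolce (-0.62, 0.0239). Among 5 tested collagenases Mmp13 was lower (-1.75, adjusted p = 0.0160). None of the 8 tested collagen receptors passed edgeR's test. At an unadjusted p below 0.05, 3 were lower by edgeR (15.2% of all genes tested were), and DESeq2 called 2 lower (9.57% of all genes). Without WT 164 and 165, 1 of these pathway genes, Serpinh1, was lower (1.53% of all genes were). In that fit 11 were lower at an unadjusted p below 0.05 (9.16% of all genes were).

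Markers of the cells that could carry collagen RNA were measured beside these results, and their part in them was not tested. Over all genes tested, edgeR's adjusted test called 6.48% lower and 4.36% higher, and DESeq2 called 9.57% and 7.33%. The portal fibroblast list (7 genes, 6 tested) summed to 41.2 to 74.0 CPM in WT and 27.8 to 39.1 CPM in E4bp4-LKO livers. These sums did not overlap, but of the single genes only Entpd2 passed as lower and 5 did not pass. Thy1 went the other way (log2 fold change 0.18, edgeR adjusted p = 0.676) and Fbln2 barely moved (-0.05, 0.900). Eln, Mfap4 and Dpt were at -1.26, -0.96 and -0.76 (adjusted p = 0.110, 0.184 and 0.102). The stellate cell list (10 genes) summed to 419 to 485 CPM and 368 to 455 CPM, with overlap, and 3 passed as lower (Lrat, Colec11 and Cygb). Ecm1 (165 CPM in WT and 188 CPM in E4bp4-LKO livers on average) and Reln (78.9 and 83.1 CPM) make up much of that sum. The other 8 stellate genes all had log2 fold changes below 0 (median of the 10 -0.41). Of the 10, 7 were lower at an unadjusted p below 0.05 (15.2% of all genes tested were) and 5 were lower in DESeq2. The macrophage list (6 genes) ran from 321 to 488 CPM and from 242 to 355 CPM, with overlap. In it 3 were lower (Cd68, Trem2 and Gpnmb) and 3 did not pass by edgeR. The latter were Csf1r (-0.24, adjusted p = 0.275), Adgre1 (-0.14, 0.723) and Clec4f (-0.03, 0.950), so the list did not fall as a whole. Cholangiocyte markers ran from 30.8 to 60.0 CPM and from 29.3 to 42.2 CPM, smooth muscle from 22.8 to 30.7 CPM and from 22.1 to 28.5 CPM, and leukocytes from 24.1 to 37.2 CPM and from 17.2 to 30.0 CPM, with no call by edgeR (4 cholangiocyte genes and 0 of the others were lower or higher at an unadjusted p below 0.05, where 15.2% of all genes were lower and 13.1% higher, and DESeq2 called 2 cholangiocyte genes). Sinusoidal endothelial markers ran from 222 to 252 CPM and from 216 to 301 CPM, and general endothelial markers from 126 to 141 CPM and from 127 to 197 CPM, with Vwf higher. Mesothelial markers summed to 1.34 to 11.3 CPM and 0.481 to 4.42 CPM, with Msln, Upk3b, Upk1b and Lrrn4 at 0 counts in at least 1 liver. WT 164, the liver with the most collagen RNA, had the highest summed WT level of the stellate (485 CPM), portal fibroblast (74.0), cholangiocyte (60.0), macrophage (488) and leukocyte (37.2) lists and the lowest of the hepatocyte list (53240).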

How the data were processed

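Poly(A)-selected or rRNA-depleted RNA (the labels name both) from 8 livers was sequenced, and reads were aligned with HISAT2, per the submitters' processing notes. For the quantifier, genome build, annotation and versions, nothing is given in the sources used here. The deposited expected counts are estimated per gene by the authors and need not be whole. The authors also deposited FPKM and an average transcript length per gene, per the file headers. Each library lists its own genes. They were joined by gene ID, with a missing gene taken as 0 and 26 isoform entries added to their gene. Expected counts were rounded and tested in edgeR 4.0.16 (TMM, filterByExpr at a minimum count of 10, robust quasi-likelihood test, two-sided, Benjamini-Hochberg over 13244 genes, threshold 0.05) in R 4.3.3. The SE is the log2 fold change over the square root of F. Chain ratios used deposited FPKM and an exact permutation test. Alternatives used DESeq2 1.42.0, limma 3.58.1 on log2(FPKM + 1) and log2(FPKM + 0.1), voom weights, other scaling and filters, and libraries left out. The edgeR test was tried on simulated data, and the other steps were not. The collagen genes, classes, pathway and marker lists were chosen with earlier results of these data known. Genes given in every library are those past the threshold, the main chains of each class, and those with a log2 fold change above 0 and a mean of at least 1 CPM. The other genes are given by range. Replicates are 4 mice a group, and no 2 libraries agreed within sampling noise (lowest chi-square per degree of freedom 7.52). Promoter windows are from RefSeq on GRCm38.p6. They were matched by gene ID, with the printed sequences picked by symbol, and not by position, since the build of the counts is not known.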

Additional observations from a re-analysis of the deposited data

Results flagged for a closer look

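In 5 of 38 groups of 4 livers looked at, 1 liver stood apart from the other 3 by Dixon's criterion, which chance alone meets in about 1 group in 20. WT 164 stood high for Col4a2, at 99.3 CPM beside 56.3 to 63.2 CPM in the other WT livers, and for the share of all counts in collagen genes, at 0.301% beside 0.184% to 0.202%. E4bp4-LKO 145 stood high for Col6a1, at 29.8 CPM beside 20.4 to 21.6 CPM, and for Col6a2, at 20.3 CPM beside 11.3 to 12.0 CPM. E4bp4-LKO 143 stood high for Col5a3, at 39.1 CPM beside 34.9 to 35.5 CPM in the rest of its group.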

How the results depend on the processing

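No paired analysis was possible because the mouse numbers of the groups do not overlap. The count of 8 lower collagen genes became 5 with no filter on low counts and 2 without WT 164 and 165 together. It ranged from 1 to 11 with each liver left out. The count of 2 higher genes became 1 with plain library totals, 1 on log2(FPKM + 1) and 1 on log2(FPKM + 0.1), and was 2 with each liver left out. Without WT 164 and 165 together that count became 0 by edgeR (4 at an unadjusted p below 0.05, where 9.44% of all genes were higher). The median log2 fold change of -0.56 became -0.89 among genes with at least 5 CPM in 4 libraries, -0.79 and -0.98 on log2(FPKM + 1) and log2(FPKM + 0.1), and -0.34 without WT 164 and 165 together, and ranged from -0.68 to -0.33 with each liver left out. The first 3 of these tested fewer genes, and for the rest the cause was not tested. As a share of summed FPKM the collagen genes took 0.0754% in WT and 0.0550% in E4bp4-LKO livers, against 0.221% and 0.170% of counts, since FPKM divides by transcript length. With plain library totals the median of all genes moved from 0.01 to -0.15 and that of the collagen genes to -0.73, and the calls over all genes moved from 6.48% lower and 4.36% higher to 12.5% lower and 2.20% higher. The 3 chain ratios kept their direction under the alternatives run, and none passed. With 3 livers against 4 the smallest exact permutation p is 0.0571, so no ratio could pass there. For the 10 called collagen genes, 117 of 160 gene and setting combinations kept the call and 43 lost it. For the 5 named genes that were not called, 5 of 77 combinations (all for Col1a1) gave a call. Among all 237, 0 changed sign. The 11 collagen genes left out by the low-count filter held at most 29 counts in any liver, and others nearly as low were tested with wide errors.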

Other observations

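Several collagen genes lie next to each other in the genome, and their changes are given here side by side. Col3a1 and Col5a2 are neighbours, at -1.15 and -1.23 on the log2 scale, and both passed as lower, while Wdr75 beyond Col5a2 was at 0.00 (adjusted p = 0.992) and Gulp1 beyond Col3a1 at 0.09 (0.902). Col6a1 and Col6a2 are neighbours at -0.96 and -1.27. Ftcd beyond Col6a2 was at 0.07 (adjusted p = 0.747) and Pcbp3 beyond Col6a1 at -0.34 (0.444). Col15a1 lies between Galnt12, which was lower (-1.76, adjusted p = 0.0182), and Tgfbr1, at -0.18 (0.413). Col14a1, which did not pass, lies next to Deptor, which was higher (0.47, adjusted p = 0.0114). Col1a2, which was lower, lies next to Casd1, which was higher (0.35, adjusted p = 0.0226). Filip1l, beside Col8a1, was lower (-0.48, adjusted p = 0.0445), while Col8a1 did not pass.

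Col25a1, a transmembrane chain too scarce to test, was at 0, 0.244, 0.175 and 0.105 CPM in the WT livers and at 0.370, 0.198, 0.845 and 0.357 CPM in the E4bp4-LKO livers. The groups overlapped and no liver held more than 23 counts. Col28a1 held 24, 0, 6 and 2 counts in the WT livers and 0, 1, 0 and 4 in the E4bp4-LKO livers, so its WT level came mostly from WT 164. The deposited average transcript length of Col18a1 lay between 5638 and 5642 bases in all 8 livers.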
